A study of Homo sapiens with 12 samples.

Results

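NQO1, AKR1C1, AKR1C2, AKR1C3, GCLM, GCLC, HMOX1, TXNRD1 and SRXN1 are 9 target genes of the transcription factor NRF2 that act on quinones, carbonyls, glutathione, thioredoxin and heme. They were found by symbol among 21574 features, and all 9 were among the 13071 features tested. The genes were chosen from the same data, by what they measured in TMEM216 against Ctrl cells, so the values of that comparison describe them, no p is given, and calls in it are counted as a description only. The cells are MDA231-LM2, a lung-metastatic derivative of MDA-MB-231, a human triple-negative breast cancer line. The 4 groups, with 3 libraries each, are Ctrl cells, Ctrl cells given IGF1, TMEM216 cells and TMEM216 cells given IGF1. TMEM216 encodes a transition zone protein of the primary cilium. IGF1 is a growth factor that activates the receptor IGF1R. The labels do not say how TMEM216 was altered, whether the TMEM216 cells are 1 clone, or the dose and duration of IGF1. They also do not say whether replicates were separate cultures, so p-values measure only how these libraries vary, and that variation may be technical.

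NRF2, encoded by NFE2L2, is held at a low level by KEAP1, which presents it to a CUL3 ubiquitin ligase. Oxidants and electrophiles modify KEAP1, NRF2 accumulates, and with a small MAF protein it binds antioxidant response elements of genes for detoxification, glutathione synthesis, thiol reduction and NADPH supply. BACH1 binds the same kind of element as a repressor, and heme releases it, most visibly at HMOX1.

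The starts of these genes were read from RefSeq windows (GRCh38.p14), which held 8 of the 9 genes at 10 start sites; HMOX1 had no entry. The core of the antioxidant response element was searched as TGACNNNGC on both strands of the 300 bases from 250 before to 50 after a start. It matched 3 of the 10 windows, at GCLM and at both TXNRD1 starts, against 13.3% of all 35116 windows. Counted by gene, it matched 2 of the 8, against 16.1% of 27305 genes. None of those matches overlapped TGANTCA, the AP-1 motif, which was in 7.71% of all windows and in 0 of the 10. A match is a description of letters and not a binding site. GCLM, which makes the regulatory subunit of glutamate-cysteine ligase, and TXNRD1, thioredoxin reductase, are shown as the genes with a match, and the motif is in capitals, read on the opposite strand. The GCLM sequence is the 250 bases before the start at chr1:93909431-93909680 (minus strand), and that of TXNRD1 is the 250 bases before its second start at chr12:104286782-104287031 (plus strand).
GCLM: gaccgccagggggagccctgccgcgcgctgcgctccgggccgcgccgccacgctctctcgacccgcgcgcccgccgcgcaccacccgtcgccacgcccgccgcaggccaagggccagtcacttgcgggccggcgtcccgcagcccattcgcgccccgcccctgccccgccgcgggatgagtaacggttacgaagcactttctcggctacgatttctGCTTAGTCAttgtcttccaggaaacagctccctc
TXNRD1: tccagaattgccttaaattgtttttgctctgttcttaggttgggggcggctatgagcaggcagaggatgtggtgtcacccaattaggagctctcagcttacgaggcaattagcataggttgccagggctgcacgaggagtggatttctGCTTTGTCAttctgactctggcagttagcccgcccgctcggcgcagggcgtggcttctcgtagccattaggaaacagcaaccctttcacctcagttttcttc

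AKR1C1, AKR1C2 and AKR1C3 lie side by side on chromosome 10 and encode aldo-keto reductases that reduce carbonyls and steroids. They are shown because AKR1C1 and AKR1C2 are almost the same sequence, while AKR1C3 reads apart. Over 250 bases before the start, 245 of 246 aligned bases were identical between AKR1C1 (chr10:4963165-4963414, plus strand) and AKR1C2 (chr10:5003858-5004107, minus strand). The first start of AKR1C3 (chr10:5048531-5048780, plus strand) matched AKR1C1 at 74.0% and AKR1C2 at 73.2% of 250 bases. Capitals mark bases of AKR1C1 and AKR1C2 that are unpaired or differ between them.
AKR1C1: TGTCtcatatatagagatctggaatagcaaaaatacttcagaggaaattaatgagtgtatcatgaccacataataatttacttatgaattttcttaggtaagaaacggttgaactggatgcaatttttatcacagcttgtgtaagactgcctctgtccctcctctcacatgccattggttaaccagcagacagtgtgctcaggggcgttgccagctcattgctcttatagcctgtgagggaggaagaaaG
AKR1C2: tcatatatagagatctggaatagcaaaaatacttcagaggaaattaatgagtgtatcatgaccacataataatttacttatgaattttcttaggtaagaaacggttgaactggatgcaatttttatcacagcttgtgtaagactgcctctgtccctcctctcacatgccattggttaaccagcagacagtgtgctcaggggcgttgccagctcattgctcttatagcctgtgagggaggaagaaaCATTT
AKR1C3: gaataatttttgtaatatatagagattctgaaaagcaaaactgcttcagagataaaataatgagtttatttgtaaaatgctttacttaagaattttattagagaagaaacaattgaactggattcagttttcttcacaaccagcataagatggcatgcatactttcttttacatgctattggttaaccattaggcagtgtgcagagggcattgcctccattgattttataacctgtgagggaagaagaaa

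Markers of the line and TMEM216 itself were checked first. Vimentin (VIM) was at 5755 to 7272 TPM, and ESR1, PGR and CDH1 were at or under 0.204 TPM in every library; ERBB2 (31.7 to 42.9 TPM) and EPCAM (11.9 to 15.7 TPM) were detected. TPM is a level per transcript length scaled to one fixed total in each library, so sequencing depth is unknown. TMEM216 was at 24.0 to 30.1 TPM in the 6 Ctrl libraries and at 163 to 250 TPM in the 6 TMEM216 libraries. Of 8 markers of blood, endothelial, erythroid and liver cells, CD3E and HBB were at 0 throughout; CD68, at 140 to 212 TPM, made up nearly all of their sum of 141 to 213 TPM. Ctrl+IGF1 replicate 3 and TMEM216 replicate 1 stood apart: they had the lowest scores on the first principal component (-31.0 and -19.4, against -8.44 to 18.2 in the other 10). Those 2 libraries, Ctrl+IGF1 replicate 3 and TMEM216 replicate 1, also had the highest share of TPM in ribosomal protein genes (15.7% and 13.7%, against 11.6% to 13.4%).

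Without IGF1, NQO1, AKR1C2, AKR1C3 and GCLM were higher in every TMEM216 library than in any Ctrl library, and HMOX1 was lower in every one. With IGF1, NQO1, AKR1C1, AKR1C3, GCLM, TXNRD1 and SRXN1 were higher without overlap, and HMOX1 was again lower. The 4 genes that were higher without IGF1 stand beside 6.30% of all tested features higher without overlap, and the 1 lower gene beside 15.5%. With IGF1 the 6 higher genes stand beside 12.0%, and the 1 lower gene beside 7.69%. NQO1 and AKR1C3, 2 of the 9, passed an adjusted p of 0.05 as higher in each comparison; of all features 0.153% did so without IGF1 and 0.918% with it. Since these comparisons chose the genes, nothing is read from those counts. No gene of the 9 passed as lower, which 0.941% of features did without IGF1 and 0.696% with it.

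On the log2(TPM + 1) scale, 8 of the 9 differences between TMEM216 and Ctrl were above 0 in each comparison, and HMOX1 was below. The median difference of the 9 was 0.28 without IGF1 and 0.42 with it, beside medians of -0.05 and 0.05 over all tested features. Scaling moved the balance of calls without IGF1: 20 features were higher and 123 lower as deposited, 59 and 123 after quantile normalization, and 55 and 121 after median-of-ratios scaling. In bulk RNA a change in the share of cells that express a gene cannot be told apart from a change in RNA per cell.

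**Figure D1:**
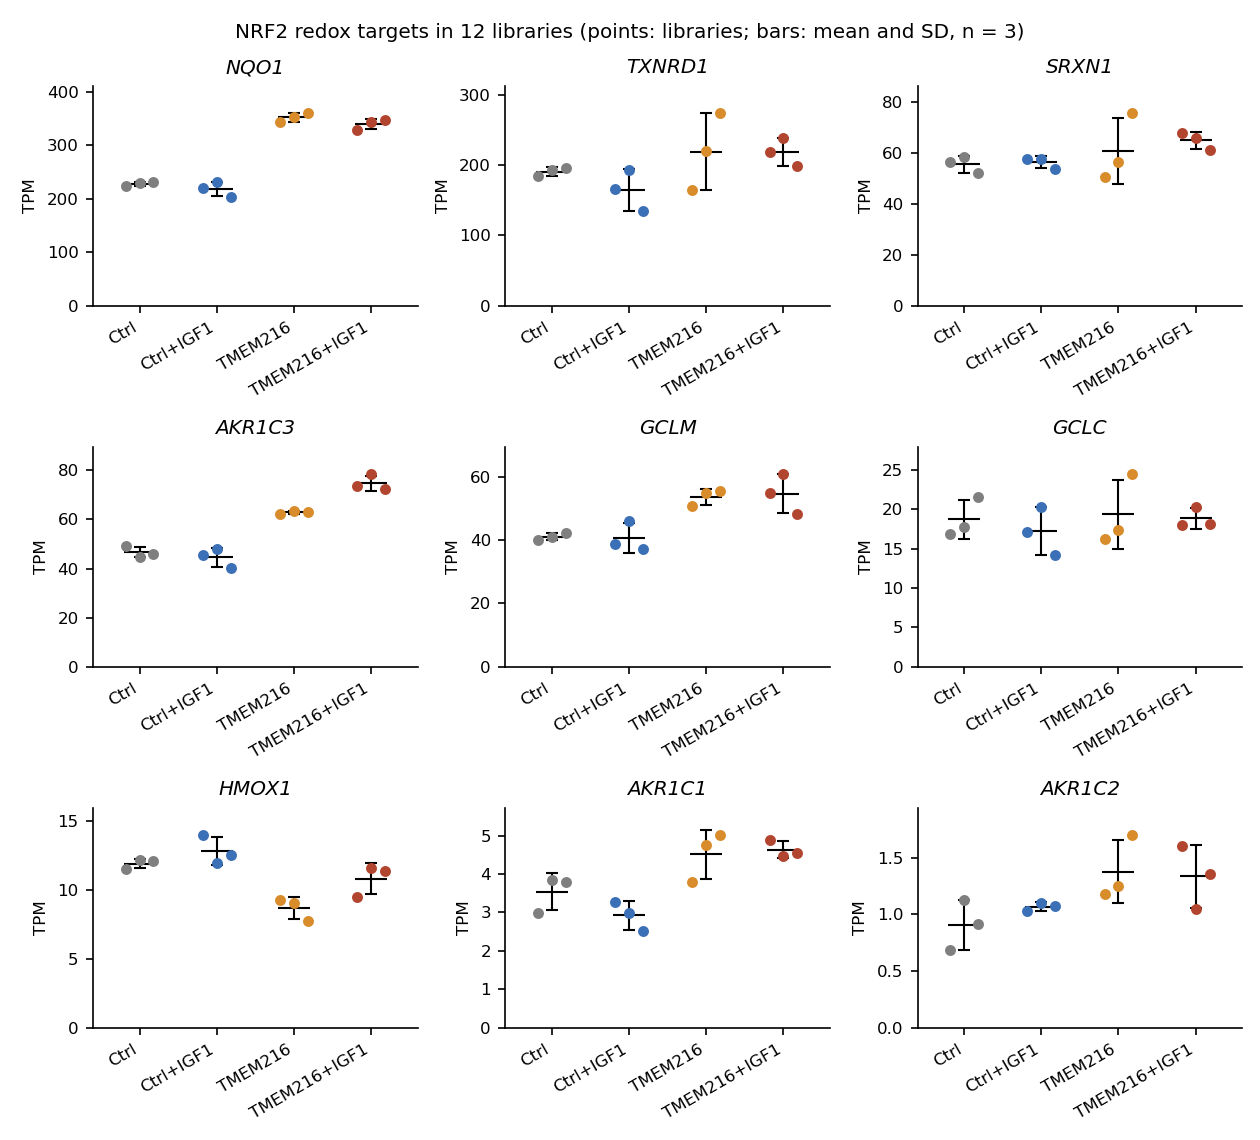
TPM of each gene (vertical axis, starting at 0) in the 4 groups (horizontal axis), with a point per library and bars for the mean and SD of 3 libraries. NQO1 lies between 204 and 231 TPM in the 6 Ctrl libraries and between 328 and 359 TPM in the 6 TMEM216 libraries, while TXNRD1 and SRXN1 spread widely within the TMEM216 group.

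By mean level over the 12 libraries, NQO1 (284 TPM) was the most abundant of the 9, followed by TXNRD1 (198 TPM). SRXN1 (59.4 TPM), AKR1C3 (57.2 TPM) and GCLM (47.6 TPM) lay close together in the middle. GCLC (18.6 TPM), HMOX1 (11.1 TPM), AKR1C1 (3.90 TPM) and AKR1C2 (1.17 TPM) followed, and AKR1C2 reached 1 TPM in 10 of 12 libraries. Neighbours in this order overlapped within a group at 2 places. AKR1C3 overlapped GCLM in the Ctrl+IGF1 group and SRXN1 in the TMEM216 group, and in the TMEM216+IGF1 group AKR1C3 stood above SRXN1.

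NQO1 (ENSG00000181019) encodes a quinone reductase that passes 2 electrons from NADH or NADPH to a quinone at once and so bypasses the semiquinone radical. Its level was 224, 228 and 231 TPM in Ctrl replicates 1 to 3 and 344, 352 and 359 TPM in TMEM216 replicates 1 to 3. With IGF1 it was 220, 231 and 204 TPM in Ctrl cells and 328, 344 and 346 TPM in TMEM216 cells. Every TMEM216 library was above every Ctrl library by more than the whole spread of either group. The means were 228 ± 3.67 and 352 ± 7.62 TPM without IGF1 (SD, n = 3), a ratio of 1.54, and the ratio with IGF1 was 1.55. The log2 difference was 0.62 (SE 0.06) without IGF1 and 0.64 with it. NQO1 also varied least within groups of the 9, with a pooled SD of 0.05 on the log2 scale.

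AKR1C3 (ENSG00000196139) reduces ketosteroids and prostaglandins, besides xenobiotic carbonyls. It was at 49.1, 44.9 and 46.1 TPM in Ctrl libraries and at 62.4, 63.4 and 63.1 TPM in TMEM216 libraries. Given IGF1, Ctrl cells were at 45.7, 47.8 and 40.1 TPM and TMEM216 cells at 73.5, 78.4 and 72.5 TPM. The 3 TMEM216+IGF1 libraries were the highest of all 12, the 3 TMEM216 libraries came next, and the 6 Ctrl libraries with and without IGF1 overlapped. The ratio of TMEM216 to Ctrl means was 1.35 without IGF1 and 1.68 with it, or log2 differences of 0.42 and 0.74 (SE 0.08 each). Leaving out any 1 library kept the log2 difference without IGF1 between 0.40 and 0.46. It stayed past the threshold without Ctrl+IGF1 replicate 1, 2 or 3 or TMEM216+IGF1 replicate 2 or 3, and not without any 1 of the other 7 libraries.

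AKR1C1 (ENSG00000187134), which inactivates progesterone, was far less abundant. It was at 2.97, 3.84 and 3.79 TPM in Ctrl libraries and at 3.79, 4.75 and 5.00 TPM in TMEM216 libraries, where the groups just overlapped. With IGF1 it was at 3.26, 2.99 and 2.52 TPM in Ctrl cells and at 4.87, 4.46 and 4.55 TPM in TMEM216 cells, without overlap, a ratio of 1.58. AKR1C2 (ENSG00000151632), which acts on dihydrotestosterone, was at 0.683, 1.13 and 0.911 TPM in Ctrl libraries and at 1.18, 1.25 and 1.69 TPM in TMEM216 libraries. Its groups were narrowly apart without IGF1 and overlapped with it, at 1.03, 1.10 and 1.08 TPM in Ctrl cells against 1.60, 1.05 and 1.36 TPM in TMEM216 cells. At such levels the added pseudocount of 1 shrinks the log2 difference, which was 0.32 for AKR1C2 against a ratio of means of 1.52.

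Reads can be split among these paralogs. In GENCODE v29 transcripts, 52.2% of all 50-base stretches of AKR1C2 occurred in another gene, and 50.8% of all its stretches occurred in AKR1C1. The share found in any other gene was 28.7% for AKR1C1 and 12.1% for AKR1C3. The values of AKR1C1 and AKR1C2 are uncertain to that extent. Since TPM is per length and the transcripts differ in length, the summed TPM of the 3 genes also moves with how reads were divided. The sum was 51.1 ± 1.49 TPM in Ctrl, 48.5 ± 4.31 in Ctrl+IGF1, 68.9 ± 1.31 in TMEM216 and 80.8 ± 2.79 TPM in TMEM216+IGF1 (SD, n = 3). AKR1C3 made up 90.0% to 93.4% of it in each library, and the sum differed between TMEM216 and Ctrl by 0.42 without IGF1 and 0.73 with it on the log2 scale. AKR1C4, the liver member of the family, was at 0 in 7 of the 12 libraries and at most at 0.305 TPM.

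GCLM and GCLC encode the regulatory and the catalytic subunit of glutamate-cysteine ligase, the first and rate-limiting step of glutathione synthesis. GCLM (ENSG00000023909) was at 40.1, 41.0 and 42.4 TPM in Ctrl libraries and at 50.8, 55.0 and 55.5 TPM in TMEM216 libraries. With IGF1 it was at 38.8, 46.1 and 37.3 TPM in Ctrl cells and at 55.0, 60.9 and 48.5 TPM in TMEM216 cells. The regulatory subunit was thus higher without overlap in both comparisons, by ratios of 1.31 and 1.34 and log2 differences of 0.38 and 0.42 (SE 0.10 each). GCLC (ENSG00000001084) was at 16.9, 17.8 and 21.6 TPM in Ctrl libraries and at 16.3, 17.4 and 24.5 TPM in TMEM216 libraries. In the presence of IGF1 the values were 17.1, 20.3 and 14.3 TPM in Ctrl cells and 18.1, 20.3 and 18.2 TPM in TMEM216 cells. The catalytic subunit overlapped in both comparisons, with log2 differences of 0.03 and 0.14 (SE 0.16 each). Without TMEM216 replicate 3, the highest library, the difference without IGF1 was -0.14.

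TXNRD1 (ENSG00000198431) encodes the cytosolic selenoenzyme that reduces thioredoxin with NADPH. It was at 184, 193 and 196 TPM in Ctrl libraries and at 164, 220 and 274 TPM in TMEM216 libraries. The IGF1 libraries had 166, 193 and 134 TPM in Ctrl cells and 218, 238 and 199 TPM in TMEM216 cells. The TMEM216 libraries ran from below to far above the Ctrl range without IGF1, and the groups were apart with IGF1 (199 against 193 TPM at the nearest). The log2 difference was 0.17 (SE 0.17) without IGF1 and 0.42 with it. Without TMEM216 replicate 1 the former was 0.36, and without TMEM216 replicate 3 it was -0.00415.

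SRXN1 (ENSG00000271303) encodes sulfiredoxin, which repairs overoxidized peroxiredoxins. It was at 56.2, 58.3 and 51.9 TPM in Ctrl libraries and at 50.5, 56.4 and 75.5 TPM in TMEM216 libraries. Levels with IGF1 were 57.7, 57.7 and 53.5 TPM in Ctrl cells and 67.6, 65.9 and 61.1 TPM in TMEM216 cells. Like TXNRD1 it ranged on both sides of Ctrl without IGF1 and lay above Ctrl with it, with log2 differences of 0.11 and 0.20 (SE 0.12 each). The first was 0.23 without TMEM216 replicate 1 and -0.05 without TMEM216 replicate 3. In GENCODE v29 SRXN1 shares 84.7% of its 50-base stretches with AL121758.1, which overlaps it on the same strand, so its value is uncertain to that extent.

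HMOX1 (ENSG00000100292) encodes heme oxygenase, which opens heme to biliverdin, iron and carbon monoxide. It was at 11.5, 12.2 and 12.1 TPM in Ctrl libraries and at 9.26, 9.05 and 7.75 TPM in TMEM216 libraries. With IGF1 it was at 14.0, 12.0 and 12.6 TPM in Ctrl cells and at 9.52, 11.6 and 11.4 TPM in TMEM216 cells. HMOX1 was lower in TMEM216 cells without overlap in both comparisons, narrowly so with IGF1 (11.6 against 12.0 TPM at the nearest). The ratios of means were 0.728 and 0.845, and the log2 differences were -0.42 and -0.23 (SE 0.11 each).

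IGF1 changed none of the 9 genes past the threshold in either kind of cell. In Ctrl cells the differences between IGF1 and no IGF1 ran from -0.23 (TXNRD1) to 0.12 (AKR1C2) on the log2 scale, with limma adjusted p from 0.673 to 0.952. None had an unadjusted p under 0.05, and all 9 overlapped. Over all features, 0.0306% passed the adjusted threshold and 14.6% did not overlap in either direction. The median difference in Ctrl cells was -0.06 for the 9 genes and -0.09 over all features. After quantile normalization or median-of-ratios scaling the median over all features was -0.01. As deposited, both medians were 0.02 in TMEM216 cells. In TMEM216 cells the differences ran from -0.05 (NQO1) to 0.29 (HMOX1), and AKR1C3 and HMOX1 were higher with IGF1 without overlap, 2 of 9 genes beside 10.2% of features in either direction. AKR1C3 was 1.19-fold higher, by 0.24 on the log2 scale (SE 0.08, unadjusted p = 0.00874, limma adjusted p = 0.838). HMOX1 was 1.25-fold higher, by 0.29 (SE 0.11, unadjusted p = 0.0184, limma adjusted p = 0.906). These were the 2 of 9 with an unadjusted p under 0.05, which 4.77% of features had; 0.0153% passed after adjustment. The IGF1 comparison in TMEM216 cells uses the same TMEM216 and TMEM216+IGF1 libraries as the comparisons with Ctrl cells.

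The interaction asks whether the difference between TMEM216 and Ctrl cells was itself different with IGF1. The interaction is the difference between the comparisons with and without IGF1, which chose the genes, so its counts and p-values are a description only. It passed for 0 of the 9 genes, as for 0.0153% of all features, and 1 of 9 had an unadjusted p under 0.05, beside 5.38% of features. That gene was AKR1C3, whose difference was larger with IGF1 by 0.31 (SE 0.11, unadjusted p = 0.0148, limma adjusted p = 0.754). The summed AKR1C genes gave 0.30. For NQO1 the interaction was 0.01 (SE 0.09), for HMOX1 0.19 (SE 0.15) and for TXNRD1 0.25 (SE 0.23). The median interaction over all features was 0.11 as deposited and 0.01 after either rescaling, so these values include a shift of about that size. Rescaled, the AKR1C3 value was 0.22 (quantile) or 0.21 (median-of-ratios), and with both outlying libraries left out it was 0.23 and that of TXNRD1 was -0.08.

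**Figure D2:**
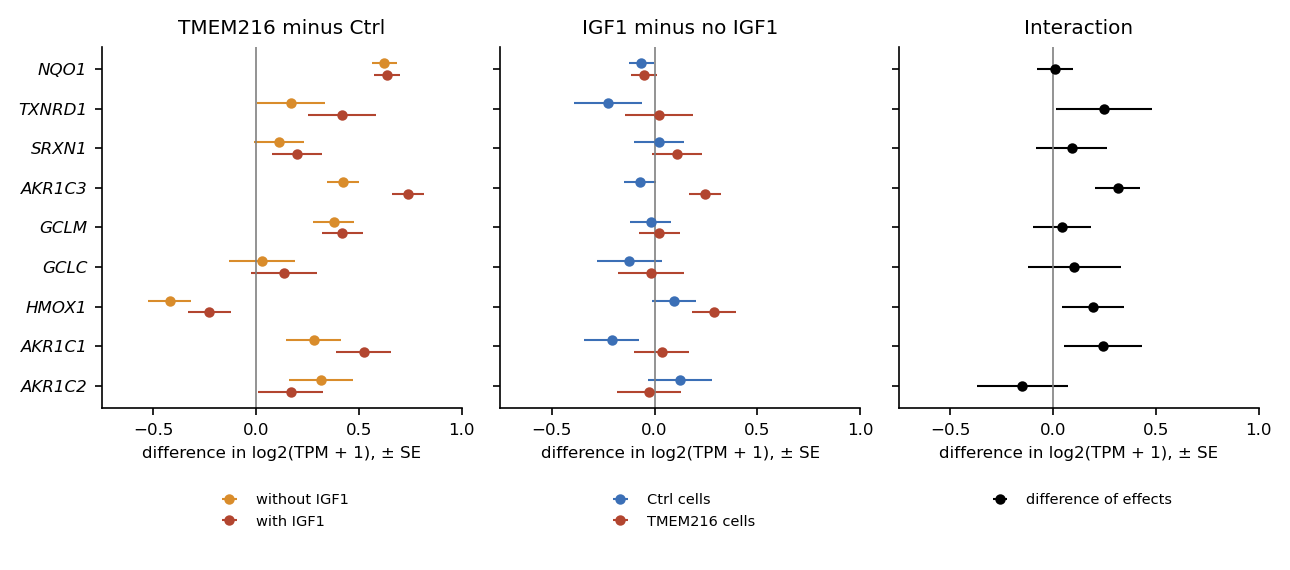
Differences in log2(TPM + 1) (horizontal axis) for the 9 genes (vertical axis), with limma's SE as bars: TMEM216 minus Ctrl on the left, IGF1 minus no IGF1 in the middle and the interaction on the right. NQO1 is at 0.62 and 0.64 on the left and near 0 in the other panels, and HMOX1 is the gene below 0 on the left.

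Within groups the genes differed in how much they varied and in which libraries. The pooled SD within groups on the log2 scale was 0.24 for TXNRD1, 0.22 for GCLC and 0.16 for SRXN1, against 0.08 for AKR1C3. In TMEM216 replicate 1 and in Ctrl+IGF1 replicate 3, 1 of the 9 genes was above its group mean, while in TMEM216 replicate 3 and Ctrl+IGF1 replicate 2 it was 8 of 9. The share of all features above their group mean in each library was not computed, so these counts are not read as particular to the 9 genes. TMEM216 replicate 1 and Ctrl+IGF1 replicate 3 are the libraries with the lowest principal component scores and the highest ribosomal protein share. They also had the lowest median-of-ratios size factors, 0.965 and 0.885. The level of TMEM216 itself was 163, 222 and 250 TPM in TMEM216 replicates 1, 2 and 3. The part of these library features in the members' levels was not tested.

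As a description over the 12 libraries, which share their groups, the 28 pairs of genes that leave out HMOX1 had correlations of 0.31 to 0.93, and the 8 pairs with HMOX1 were all below 0 (-0.78 to -0.35). After the group means were removed, the 28 pairs ran from -0.40 (AKR1C2 with AKR1C3) to 0.87 (TXNRD1 with GCLC), and 26 of the 28 were above 0. The 8 pairs with HMOX1 then ran from -0.59 (SRXN1) to 0.06 (NQO1), and 2 of the 8 were above 0. The share of pairs above 0 among all features was not computed, so nothing particular to these genes is read from the counts. Libraries also differed as a whole within groups, with median-of-ratios size factors of 0.991, 1.04 and 0.885 in Ctrl+IGF1 replicates 1 to 3.

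**Figure D3:**
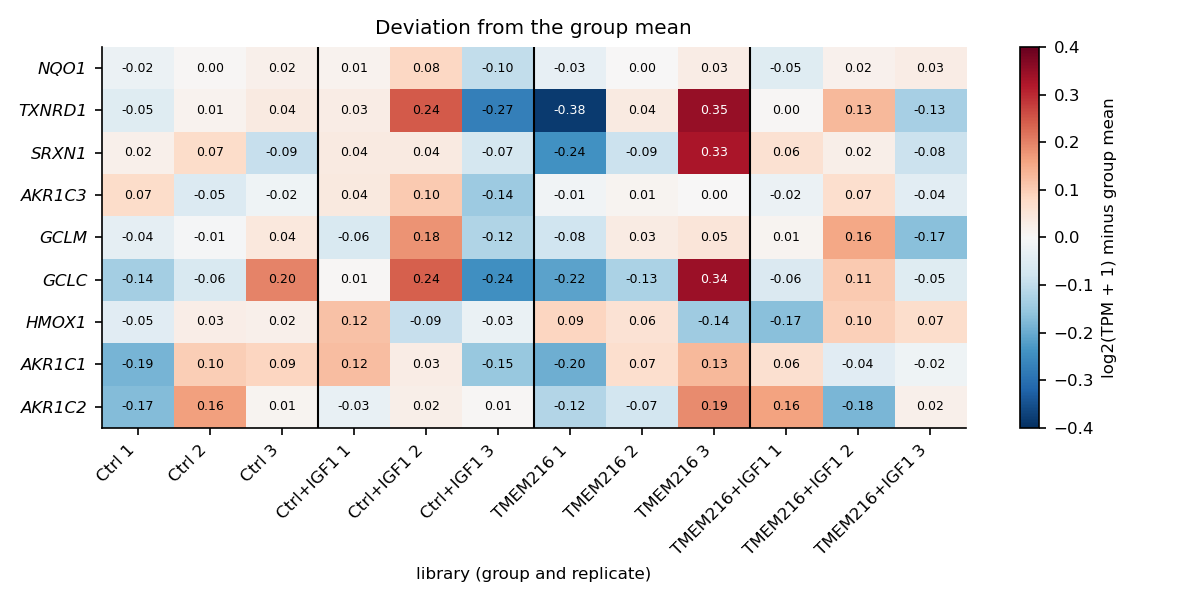
Deviation of each gene (rows) in each of the 12 libraries (columns) from its group mean, in log2(TPM + 1), with red above and blue below. TMEM216 replicate 1 is below its group mean for 8 of 9 genes and TMEM216 replicate 3 above it for 8 of 9, and TXNRD1, GCLC and SRXN1 have the deepest colours. The same shares over all features were not computed.

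The features most like 4 of the genes were ranked by Pearson's r over the 12 libraries among 10299 features with a mean of at least 5 TPM. For NQO1 they included TMEM216 (r = 0.98, Spearman's rho = 0.76) and, in the third place, the collagen gene COL6A1 (0.97, 0.71). For AKR1C3 they were the decoy interleukin receptor IL13RA2 (0.98, 0.94), LAPTM5 (0.98, 0.92) and the kinase STK17A (0.98, 0.93). For AKR1C1 they were SCFD2 (0.96, 0.93), FZD1 (0.94, 0.92) and FAM20C (0.94, 0.83), and for HMOX1 TMEM102 (0.92, 0.81), ZSWIM9 (0.90, 0.78) and RNF5 (0.89, 0.95). The 12 libraries fall into 4 groups that all these genes share, and the values are given without a test.

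Beyond the 9 genes, 37 textbook targets of NRF2 were listed, and 31 of them were tested. This list and those of regulators and relatives below were written with earlier results of these data known. Their counts and p-values are therefore a description and support nothing. Without IGF1 1 of the 31 rose in TMEM216 cells (beside 0.153% of features) and 0 fell, and with IGF1 3 rose (beside 0.918%) and 0 fell; 2 of those 3 are described here. Their median log2 difference was 0.08 without IGF1 and 0.09 with it, beside the -0.05 and 0.05 of all features. By overlap, 11 were higher and 2 lower in every TMEM216 library without IGF1 (beside 6.30% and 15.5% of features), and 11 higher and 1 lower with it (beside 12.0% and 7.69%). TRIM16, an E3 ligase gene, has a relative, TRIM16L, which was not found by symbol among the 21574 features. The sequence they share was not measured here, and the value of TRIM16 is uncertain. TRIM16 rose from 23.7 to 32.7 TPM without IGF1 (log2 0.45, SE 0.10, limma adjusted p = 0.0499) and from 24.9 to 36.2 TPM with it (0.52, adjusted p = 0.0195). The first call was kept without Ctrl+IGF1 replicate 3 and lost without any 1 of the other 11 libraries, at log2 0.37 to 0.52. The second was lost without Ctrl+IGF1 replicate 1 or 3 or TMEM216+IGF1 replicate 1 or 2. ALDH3A1, an aldehyde dehydrogenase, rose with IGF1 from 2.81 to 6.88 TPM (log2 1.04, SE 0.17, limma adjusted p = 0.00775) and was at 3.71 and 6.45 TPM without it (0.69, adjusted p = 0.0769).

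Genes that supply NADPH, the electron donor of NQO1, TXNRD1 and glutathione reductase, were above 0 in 6 of 6 cases in both comparisons, where the medians of all features were -0.05 and 0.05. The 6 log2 differences ran from 0.04 to 0.33 without IGF1 and from 0.09 to 0.47 with it. Highest without IGF1 was TKT, a transketolase of the pentose phosphate pathway, at 304 and 384 TPM (0.33, limma adjusted p = 0.0759).

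No glutathione or iron gene of the list passed the threshold. Of the 4 glutathione genes tested, 3 were above 0 without IGF1 and 1, SLC7A11, was below. With IGF1, 2 were above 0 and 2 below. SLC7A11, the cystine importer that feeds GCLC and GCLM, stood at 36.4 ± 1.19 TPM in Ctrl cells against 24.0 ± 5.26 TPM in TMEM216 cells (SD, n = 3; log2 -0.60, SE 0.18, limma adjusted p = 0.145). With IGF1 it was at 27.9 and 22.7 TPM, and the groups overlapped. Without IGF1 FTL, ferritin light chain, was at 4207 and 3793 TPM (-0.16, SE 0.20) and FTH1, ferritin heavy chain, at 1809 and 1750 TPM (-0.05, SE 0.18), beside the median of -0.05 over all features. The thioredoxin gene TXN was at 1030 and 1207 TPM without IGF1 (0.22, limma adjusted p = 0.466) and at 1202 and 1111 TPM with it (-0.10). None of the 31 targets passed for IGF1 in Ctrl cells, for IGF1 in TMEM216 cells or for the interaction (limma). An unadjusted p under 0.05 was found in 2, 1 and 1 of 31, beside 900, 624 and 703 of all 13071 features.

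**Figure D4:**
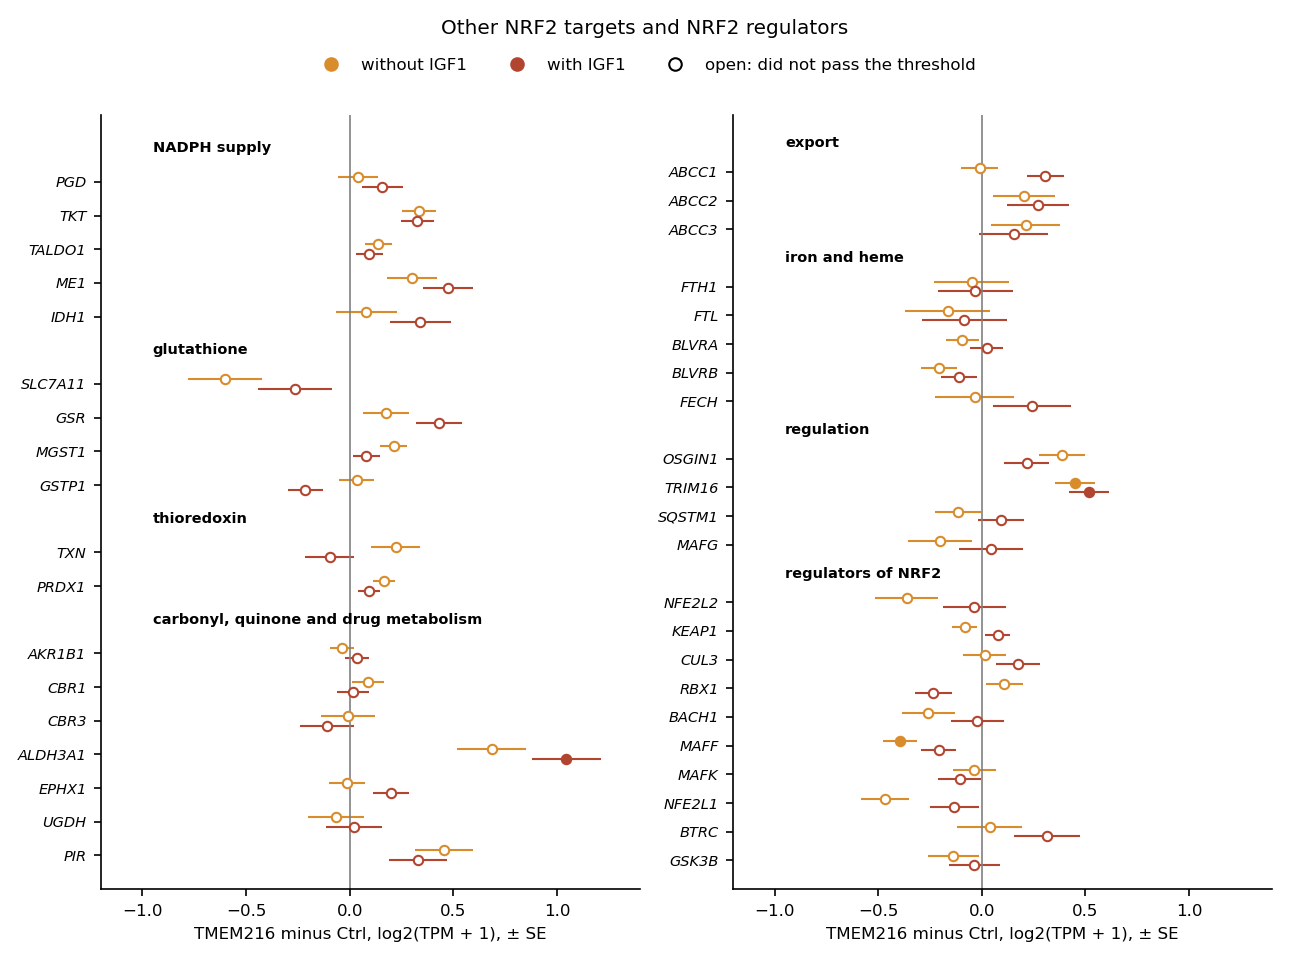
Difference between TMEM216 and Ctrl cells in log2(TPM + 1) (horizontal axis, bars are limma's SE) for 30 of the 31 tested other NRF2 targets by role and for NRF2's regulators, without and with IGF1; MAFG and SQSTM1, which are in both lists, are drawn once. Filled points passed the threshold: TRIM16 in both comparisons, ALDH3A1 with IGF1, and MAFF, below 0, without IGF1.

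Of 12 genes for NRF2 and its regulators, all tested, 1 fell in TMEM216 cells without IGF1 (beside 0.941% of features) and 0 rose. With IGF1 0 passed, and 2 of the 12 had an unadjusted p under 0.05 (limma), beside 2070 of 13071 features. The one that fell was MAFF, a small MAF partner, from 79.1 to 60.1 TPM (log2 -0.39, SE 0.08, limma adjusted p = 0.0471). It stayed past the threshold without Ctrl+IGF1 replicate 2 or 3 or TMEM216 replicate 3, and not without any 1 of the other 9 libraries (-0.46 to -0.34). NFE2L2, which encodes NRF2 itself, was at 102 and 80.0 TPM without IGF1 (-0.36, SE 0.15, adjusted p = 0.324) and at 92.3 and 88.7 TPM with it (-0.04). KEAP1 was at 84.0 and 79.2 TPM without IGF1 (-0.08, SE 0.06) and at 80.6 and 85.0 TPM with it (0.08). BACH1 was at 19.9 and 16.5 TPM without IGF1 (-0.26, SE 0.13) and at 15.6 and 15.2 TPM with it (-0.02). RNA levels do not give the amount of NRF2 protein.

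Among 18 relatives and reaction partners of the 9 genes, 15 were tested; 2 fell in each comparison (beside 0.941% and 0.696% of features) and 0 rose. CHAC1, which degrades glutathione, fell from 20.7 to 5.95 TPM without IGF1 (log2 -1.65, SE 0.15, limma adjusted p = 1.65e-04) and from 27.8 to 6.06 TPM with it (-2.03). SESN2, a sestrin, fell from 16.0 to 7.49 TPM and from 16.7 to 7.85 TPM, or to 0.469 and 0.471 of the Ctrl mean, with limma adjusted p = 0.000737 and 0.000828. NQO2 and HMOX2, sister enzymes of NQO1 and HMOX1, did not pass in either comparison. NQO2 differed by 0.02 and 0.01 (SE 0.08), against 0.62 and 0.64 for NQO1. HMOX2, the constitutive heme oxygenase, was at 55.3 and 46.3 TPM without IGF1 (-0.25, adjusted p = 0.145) and differed by 0.05 with it.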

How the data were processed

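RNA from TRIzol extraction was treated with DNase I and made into libraries with an Illumina TruSeq kit, per the labels' protocols. The authors deposited TPM per feature; HISAT2, StringTie and RSEM were used, per the submitters' processing notes, with versions, genome build and strand setting not given in the sources used here. TPM holds no counts, so no counting interval is given. From the deposited TPM, log2(TPM + 1) was computed, features with at least 1 TPM in 3 or more libraries were kept (13071 of 21574), and the 4 groups were fitted together with limma 3.58.1 (R 4.3.3, mean-variance trend, two-sided). P-values were adjusted by Benjamini-Hochberg over all features tested, with a threshold of 0.05. Differences on this scale understate changes of low genes. The members and lists were chosen with earlier results of these data known. Named from the lists were genes past the threshold, up to 6 others per list by mean TPM, and a few always included, such as NFE2L2 and SLC7A11. Alternatives changed the pseudocount (to 0.1), the filter (none, or 5 TPM), the scaling, the trend, the libraries fitted and the replicate block. Figures used matplotlib 3.10.9. The fit was tested on simulated data. A few items are not reported here.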

Additional observations from a re-analysis of the deposited data

How the results depend on the processing

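The comparisons of TMEM216 with Ctrl cells chose the genes, so calls kept in them are a description and support nothing. Over 21 alternatives, NQO1 in both comparisons and AKR1C3 with IGF1 kept direction and call under 21, and AKR1C3 without IGF1 kept its direction under 21 and its call under 12. GCLM also passed without IGF1 under quantile normalization and median-of-ratios scaling, and with IGF1 under both and without Ctrl+IGF1 replicate 2; AKR1C1 with IGF1 passed under quantile normalization and with no trend. Without IGF1 the count of the 9 genes past the threshold (2) was 1 in a fit of the 6 libraries compared and 1 with the replicate block, and ranged from 1 to 2 over single libraries left out; with IGF1 (2) it was 4 after quantile normalization. The count of other NRF2 targets without IGF1 (1) was 0 with no filter, with no trend, in 6 libraries, with the replicate block and without Ctrl+IGF1 replicate 3 plus TMEM216 replicate 1, 4 after quantile normalization and 5 after median-of-ratios scaling; it ranged from 0 to 3 over single libraries, with 3 without Ctrl+IGF1 replicate 3. With IGF1 (3) it was 5 after either rescaling and 1 in 6 libraries, and ranged from 1 (without Ctrl+IGF1 replicate 1 or 3, or TMEM216+IGF1 replicate 1 or 2) to 5 (without Ctrl+IGF1 replicate 2). Over all features, 143 passed without IGF1, against 49 in 6 libraries and 273 without Ctrl+IGF1 replicate 3; with IGF1 211 passed, and 462 without Ctrl+IGF1 replicate 2. The cause of these changes was not tested.

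Some small differences changed sign. Over single libraries left out, the difference without IGF1 ran from -0.14 to 0.14 for GCLC, from -0.0531 to 0.23 for SRXN1 and from -0.00415 to 0.36 for TXNRD1, and the NQO1 interaction from -0.037 to 0.0533. The NQO1 interaction was -0.0301 after quantile normalization, -0.10 after median-of-ratios scaling and -0.053 with both outlying libraries left out, a setting chosen after the data were seen, in which the TXNRD1 interaction was -0.0801. Of the 18 IGF1 and interaction differences of the 9 genes given above only within a range, 43 of 369 values under alternatives changed sign, by at most 0.17 from 0, and 0 passed the threshold.

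Replicate numbers of the labels gave no pairing: deviations of same-numbered libraries had correlations of -0.29 to 0.17, over 0.1 in 4 of 18 pairs, and 4 of 12 libraries were closest to their own number. With the replicate block 77 features passed without IGF1 (143 before) and 140 with it (211 before). Depth is unknown, so what it limits cannot be stated; AKR1C2 at about 1 TPM is the least certain level.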
